A study of Mus musculus with 2 samples.

Results

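The Hox genes lie in 4 clusters on different autosomes, and DNA methylation over these clusters was compared between XX and XO Xmas mESCs, female mouse embryonic stem cells of a C57/Bl6 background. In Xmas mESCs the GFP and mCherry reporters sit on different X chromosomes and are each driven by the Hprt promoter, so that sorting by FACS yields double-positive cells (XX) and cells left with a reporter on their remaining X chromosome (XO). All cells came from the modified culture method in 2i/LIF, at passage 7 by the sample labels (the study's text gives more passages for these cells, and the labels are followed here), and 1 RRBS library was made from the sorted XX cells and 1 from the XO cells. Without replicates no difference between the libraries has a replicate error, and none was tested. Library and karyotype cannot be told apart. The clusters were taken from 5 kb before the first to 5 kb after the last Hox gene of each, and the 38 Hox genes described here are among the 21938 protein-coding genes of the annotation. These spans held 5186 of the 1782730 CpG cytosines measured in both libraries, and the 100 kb on each side of them held a further 1042.

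RRBS reads the part of the genome near CCGG, the site cut by MspI, after bisulfite treatment, and the methylation of a CpG cytosine is the share of reads, in percent, in which it stayed unconverted. The strands of a CpG are read from different molecules and are listed separately. The table gave percentages without read counts, so the depth behind each value is unknown, and a value of 0% or 100% can rest on few reads. Each difference is XX minus XO, in percentage points, so that a negative value means less methylation in XX.

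Hox genes encode homeodomain transcription factors that give cells their position along the body axis. Within a cluster they are arranged in the order in which they are used, with genes of low number acting anteriorly and early and genes of high number acting posteriorly and late. In mouse embryonic stem cells the clusters are largely silent and are known as broad targets of Polycomb group proteins, and their CpG-rich DNA is generally poor in DNA methylation.

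The sequences below come from the GRCm38.p6 reference, forward strand, with the CpGs that had a value in capitals. Those at Hoxb13, Hoxd11 and Hoxa9 are shown as the stretches free of UTRs with the most negative difference in their clusters, Hoxb5 for the lowest XO level of the measured promoters, and Mir615 as the miRNA gene of the clusters with the most listed cytosines. The stretch at Hoxb2 was added after its values were seen, as the stretch with the largest positive difference in its cluster. Each is a 200 bp stretch with at least 8 listed cytosines, except for the 250 bases upstream of Hoxb5 and the Mir615 hairpin.
Hoxb13, 200 bases ending at the base before its start, chr11:96194116-96194315: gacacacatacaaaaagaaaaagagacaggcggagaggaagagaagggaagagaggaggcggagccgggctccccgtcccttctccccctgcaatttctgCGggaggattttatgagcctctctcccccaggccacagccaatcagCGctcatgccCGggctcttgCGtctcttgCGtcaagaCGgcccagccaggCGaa
Hoxd11, 694 bp beyond its end, chr2:74687710-74687909: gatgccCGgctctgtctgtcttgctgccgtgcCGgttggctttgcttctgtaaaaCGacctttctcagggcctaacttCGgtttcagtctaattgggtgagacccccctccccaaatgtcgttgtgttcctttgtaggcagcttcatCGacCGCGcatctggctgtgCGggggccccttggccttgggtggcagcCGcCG
Hoxa9, within the gene and partly in a CpG island, chr6:52229790-52229989: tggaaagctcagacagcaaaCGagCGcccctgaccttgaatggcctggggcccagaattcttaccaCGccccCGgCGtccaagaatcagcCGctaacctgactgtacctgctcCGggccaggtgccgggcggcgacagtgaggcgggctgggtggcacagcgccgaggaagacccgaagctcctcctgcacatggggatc
Hoxb2, coding exon, chr11:96353116-96353315: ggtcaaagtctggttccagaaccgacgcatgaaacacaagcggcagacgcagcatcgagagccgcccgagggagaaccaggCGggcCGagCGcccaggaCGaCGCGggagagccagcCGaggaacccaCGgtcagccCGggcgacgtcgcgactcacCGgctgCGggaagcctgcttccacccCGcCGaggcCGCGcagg
Hoxb5, 250 bases upstream of its start, chr11:96303086-96303335: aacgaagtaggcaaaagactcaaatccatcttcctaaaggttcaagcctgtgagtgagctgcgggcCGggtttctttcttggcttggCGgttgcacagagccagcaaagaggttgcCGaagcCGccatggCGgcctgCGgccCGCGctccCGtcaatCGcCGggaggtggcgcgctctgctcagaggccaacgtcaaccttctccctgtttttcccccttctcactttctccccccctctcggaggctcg
Mir615, hairpin within Hoxc5, chr15:103014910-103015001: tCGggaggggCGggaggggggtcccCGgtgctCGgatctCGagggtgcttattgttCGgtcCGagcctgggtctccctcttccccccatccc

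Upstream of Hoxb13 methylation was 11.5% in XX and 38.2% in XO over 8 cytosines, with a difference of -44.1 points over 5 cytosines of the forward strand and 2.30 over 3 of the reverse strand. Beyond Hoxd11 it was 15.9% in XX and 46.2% in XO over 11 cytosines, and both strands were lower in XX, by -47.4 points over 4 cytosines and -20.6 over 7. In Hoxa9 it was 5.13% in XX and 28.4% in XO, and the difference came from the reverse strand (-33.1 points over 7 cytosines, against -0.33 over 3 of the forward strand). The Hoxb2 exon was at 32.4% in XX and 0.22% in XO over 20 cytosines, with 45.9 points over 14 cytosines of the reverse strand and a difference of 0 over 6 of the forward strand. The bases upstream of Hoxb5 were at 3.28% in XX and 3.46% in XO over 15 cytosines. The Mir615 hairpin was at 0.77% in XX and 4.59% in XO over 13 cytosines.

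The Hoxa span lies on chromosome 6 (115 kb), Hoxb at chr11:96189316-96373256 (184 kb), Hoxc at chr15:102916103-103041852 (126 kb) and Hoxd at chr2:74663310-74770142 (107 kb). Of the reference CpG cytosines of the spans, 22.2% had a value in Hoxa, 17.4% in Hoxb, 19.3% in Hoxc and 23.7% in Hoxd. All 3688 CpGs with a value lay within 100 bp of a CCGG, against 61.6% of the 12635 CpGs in the reference, so the parts of the clusters far from a CCGG were not read. CpG islands held 61.5% of the listed cytosines.

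Methylation was low across all 4 clusters and lower in XX than in XO in each. Taken over their 5186 cytosines, XX averaged 9.56% and XO 12.13%, a difference of -2.57 points, with an SD over cytosines of 15.3 in XX and 18.4 in XO. Hoxa was at 8.74% in XX and 10.97% in XO (1481 cytosines), Hoxb at 11.19% and 13.89% (1314), Hoxc at 10.97% and 13.21% (1023) and Hoxd at 7.81% and 10.88% (1368). The difference ran from -3.06 points in Hoxd to -2.23 in Hoxa, and forward and reverse strands gave similar differences over all clusters (-2.58 and -2.56). At the level of cytosines, 42.6% were lower in XX, 31.7% higher and 25.7% equal, and 25.4% were at 0% in both libraries. A difference of 20 points or more was found at 9.72% of the cytosines in the direction of lower XX, where the whole table had 22.5%, and at 4.34% in the direction of higher XX, where the whole table had 3.68%.

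The 100 kb on each side of the clusters was more methylated than the clusters and had larger differences. Over all sides it was at 17.51% in XX and 23.29% in XO, a difference of -5.78 points. Beside Hoxa the values were 20.27% and 23.06% (337 cytosines), beside Hoxb 23.68% and 33.14% (234), beside Hoxc 14.43% and 21.54% (187) and beside Hoxd 11.20% and 16.60% (284). XO exceeded XX on the flanks of every cluster, and the difference ran from -9.46 points at Hoxb to -2.79 at Hoxa. The Hoxa value mixes opposite directions, as the islands beside Hoxa were at 11.5% in XX and 7.92% in XO (143 cytosines). The other autosomal positions were at 17.6% in XX and 25.73% in XO (-8.13 points, 1749868 cytosines).

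**Figure D1:**
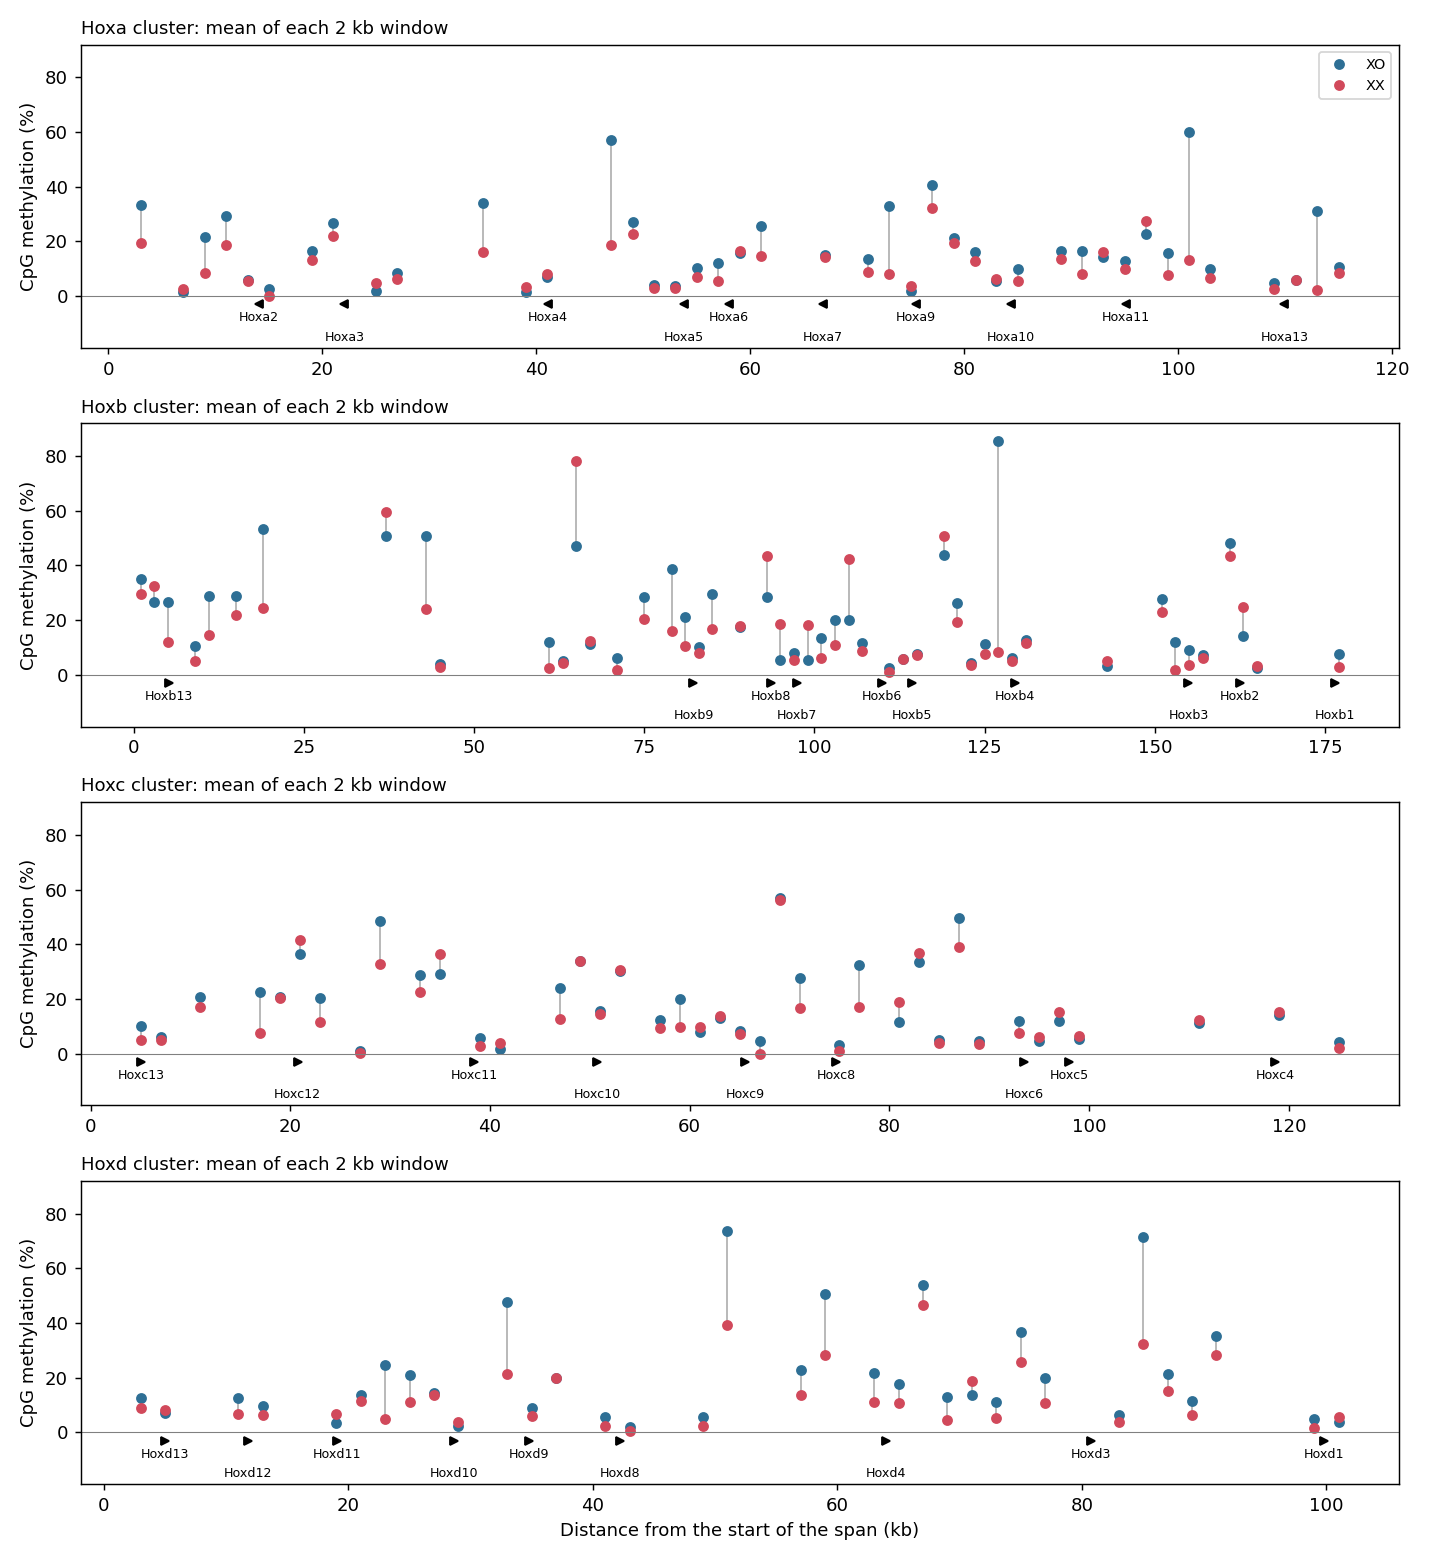
Mean CpG methylation (%) of each 2 kb window with at least 3 listed cytosines (163 windows) against the distance in kb from the start of the span, for the Hoxa, Hoxb, Hoxc and Hoxd clusters, with XX in red, XO in blue and a grey line joining the pair. Arrowheads mark the coding start and direction of each gene. Most windows near the genes lie under 20% in both libraries, Hoxb13 stands at the left of its cluster with XO above XX, and the windows at Hoxb8 and in Hoxb6 have XX above XO.

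Levels were also taken inside and outside CpG islands. Inside islands the clusters (6.54% in XX, 7.80% in XO, 3191 cytosines) and the other autosomal islands (6.69% and 7.81%) had near-equal values. Outside islands the clusters were at 14.4% in XX and 19.04% in XO (1995 cytosines), the 100 kb beside them at 23.03% and 30.84% (647), and the other autosomal positions at 28.5% and 43.63%. The corresponding differences were -4.66, -7.81 and -15.13 points. Outside islands the flank had the larger difference at Hoxa, Hoxb and Hoxc. At Hoxd the span had the larger one, with -6.22 points against -4.04 beside it. By cluster, the XO mean outside islands was 18.9% in Hoxa, 20.15% in Hoxb, 16.64% in Hoxc and 20.70% in Hoxd, and the XX mean ran from 13.59% in Hoxc to 14.8% in Hoxa. Among 2006 other autosomal stretches of 100 kb with at least 100 such cytosines, whose median was 24.6% in XX and 36.7% in XO, a lower XO mean was found in 25 for Hoxa, 36 for Hoxb, 11 for Hoxc and 40 for Hoxd (0.55% to 1.99% of them).

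Methylation depended on how many CpGs lay close by, in the clusters as elsewhere. Cytosines with 1 to 5 CpGs within 100 bp were at 25.4% in XX and 34.1% in XO in the clusters and at 34.3% and 52.0% at other autosomal positions. With 6 to 10 CpGs the values were 14.5% and 19.5% in the clusters and 25.2% and 38.9% elsewhere. With 21 to 30 CpGs they were 5.30% and 5.77% in the clusters and 5.58% and 6.47% elsewhere. The clusters and the rest of the autosomes thus differed less here than with 1 to 5 or 6 to 10 CpGs. In the densest class, of 31 or more, XX was above XO in the clusters (3.97% against 2.56%, 291 cytosines). Other autosomal positions weighted to the density classes of the clusters had 13.4% in XX and 18.96% in XO, above the 9.56% and 12.13% of the clusters.

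**Figure D2:**
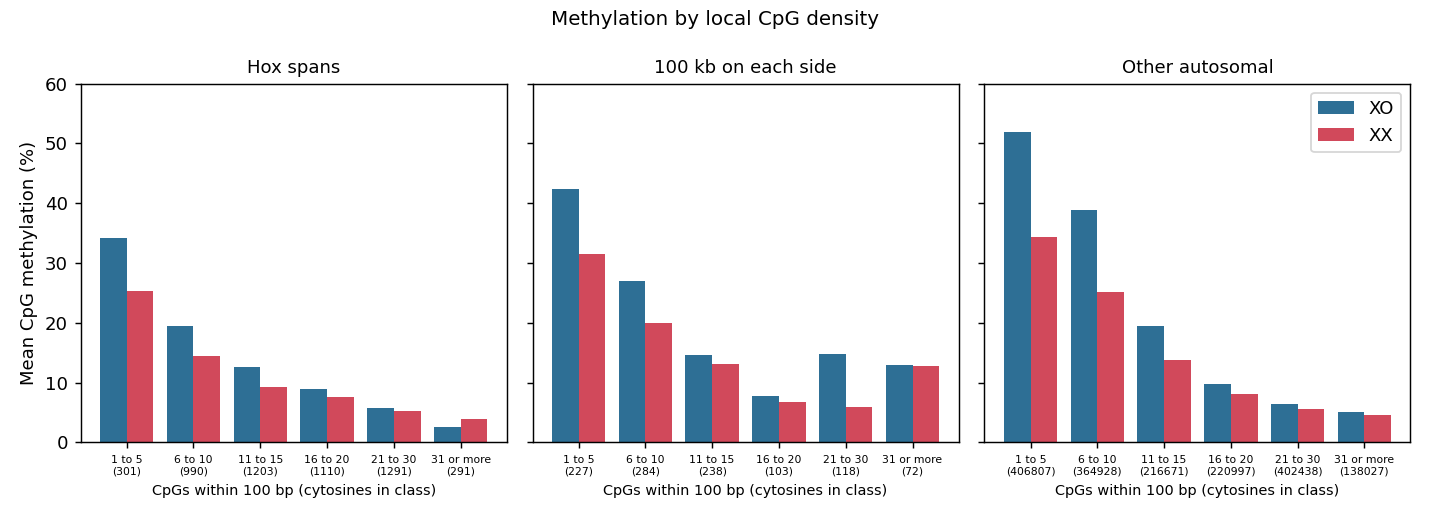
Mean CpG methylation (%) in XX (red bars) and XO (blue bars) by the number of CpGs within 100 bp of each cytosine, in the Hox spans, the 100 kb on each side and the other autosomal positions, with the number of cytosines of each class in brackets. At 1 to 5 CpGs the XO bar is at 34.1% in the Hox spans and 52.0% at other autosomal positions, and from 21 CpGs onwards the bars of these sets are close to each other.

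The level changed with distance from the cluster edge. Outside islands, the first 25 kb beyond the edges was at 17.9% in XX and 23.0% in XO (244 cytosines), 25 to 50 kb at 20.95% and 33.1% (132), and 50 to 100 kb at 28.6% and 36.8% (271). These values pool the sides of all 4 clusters, which contribute unequally. Within the clusters, coding exons were at 7.25% in XX and 7.63% in XO (2006 cytosines), a difference of -0.37 points. Positions between genes were at 12.5% and 18.8% (745 cytosines), and introns and other transcribed positions at 11.1% and 13.3% (1294). These pooled values differed between clusters. Positions between genes had a difference of -8.48 points in Hoxb, which held 369 of the 745 cytosines, and of -2.04 in Hoxd, where introns and other transcribed positions had -5.08. Coding exons ran from -1.41 points in Hoxa to 1.76 in Hoxb.

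The Hoxb cluster was uneven. Hoxb13 is separated from the rest of the cluster by 74.0 kb without another Hox gene, and this interval was at 14.8% in XX and 23.5% in XO (-8.66 points, 258 cytosines), with 62.8% of its cytosines lower in XX. From Hoxb9 to the end of the span the means were 9.86% and 10.48% (-0.62 points, 993 cytosines). Without the interval the difference of the whole Hoxb span was -1.24 points in place of -2.70, so it rested largely on this interval. The window of the interval with the most cytosines ended 142 bp before Hoxb9 and was at 10.4% in XX and 21.2% in XO (51 cytosines), and in the next largest, 5869 bp beyond Hoxb13, the values were 22.0% and 28.7% (42 cytosines).

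Promoters, taken as 1 kb on each side of the annotated gene start, had at least 10 listed cytosines for 32 of the 38 genes. The starts of Hoxa3, Hoxb3, Hoxb8, Hoxc4 and Hoxd11 had no listed cytosine, and that of Hoxb2 had 5. The median promoter was at 6.06% in XX and 8.83% in XO, against 6.96% and 8.19% over 12333 promoters of all protein-coding genes, and 25 of the 32 (78.1%) were lower in XX and 7 higher, where 64.5% of all were lower and 35.4% higher. A difference of at least 5 points in the direction of lower XX was found at 3 of 32 promoters (9.38%), where all protein-coding genes had 18.3%, and in the direction of higher XX at 2 (6.25%), where all had 5.51%. Without cytosines at exactly 0% or 100% in both libraries the promoters lower by 5 points numbered 8 of 30, against 27.4% of all, and with each CpG counted once over its strands 5 of 31, against 21.1%. None of these shares is read as particular to Hox genes, and Hoxa7 (-4.82 points), Hoxb9 (-4.67) and Hoxc12 (4.81) lay just under the threshold. Hoxd3 and Hoxd4 start 2 bp apart and share the same promoter values.

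**Figure D3:**
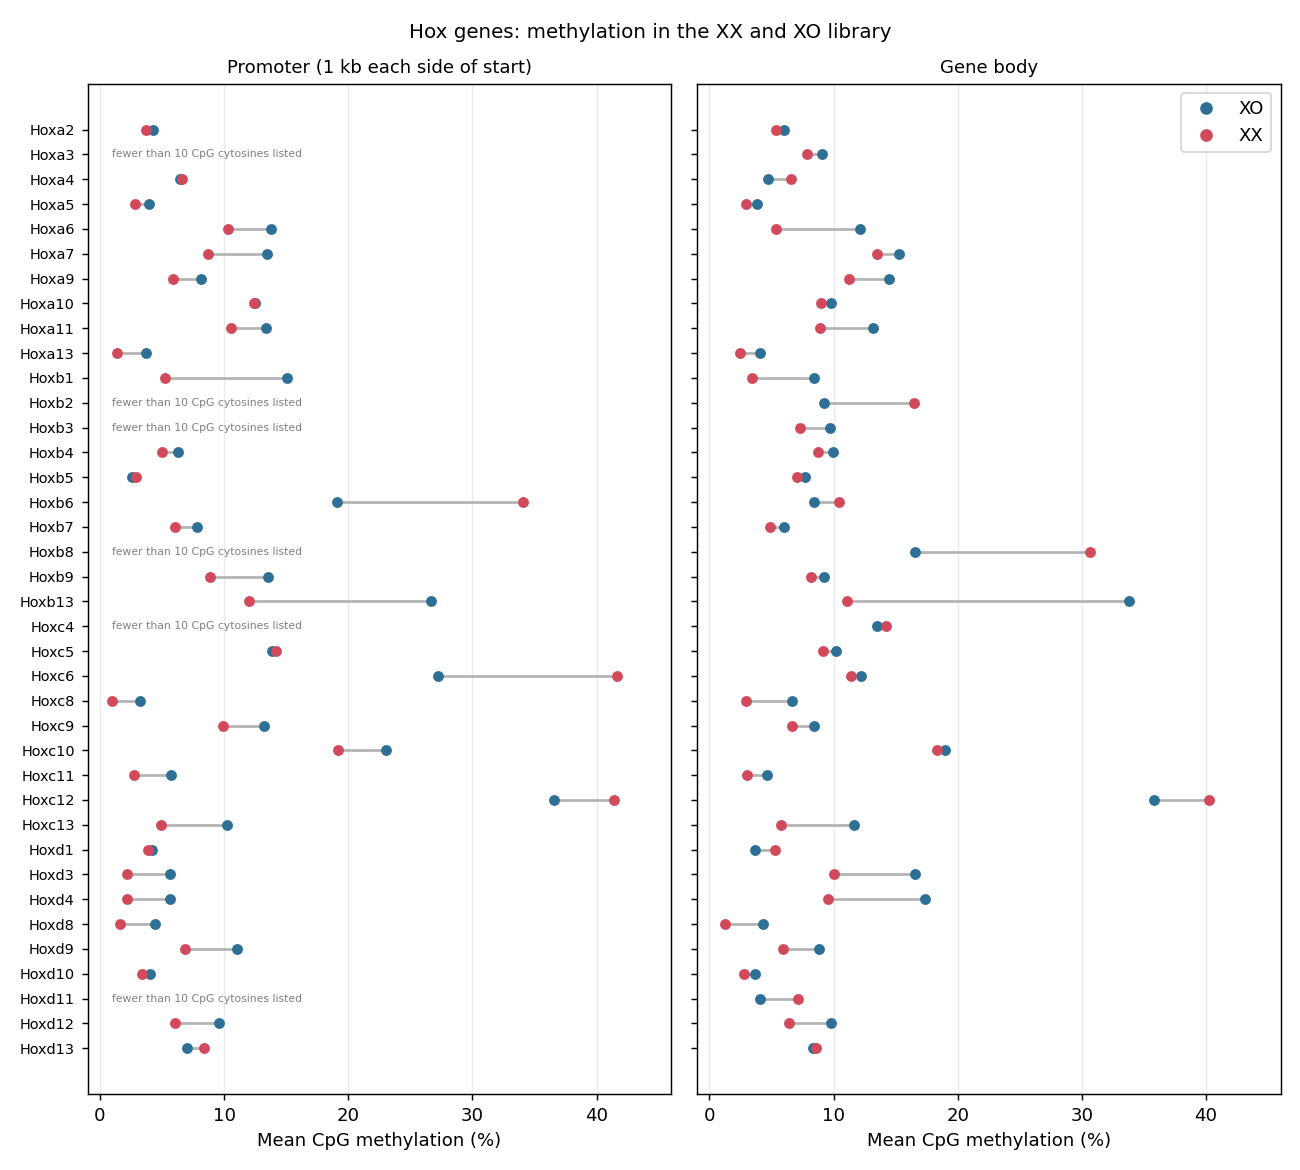
Mean CpG methylation (%) of the promoter (left, 1 kb on each side of the annotated start) and the gene body (right) of each of the 38 Hox genes, with XX in red and XO in blue. Most pairs lie under 20% and close together, while Hoxb13 and Hoxb1 have XO clearly to the right of XX, and Hoxb6 and Hoxc6 promoters and the Hoxb8 body have XX to the right of XO.

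The anterior genes, numbered 1 to 4, specify the hindbrain and neck. Their 7 measured promoters had medians of 3.84% in XX and 5.64% in XO. Hoxb1, which acts in the hindbrain, was the exception (chr11:96365752-96368256), with 5.25% in XX and 15.1% in XO over 11 cytosines, 9 of them lower in XX. Its body was at 3.43% and 8.47% over 30 cytosines. Its partner by number in the Hoxd cluster, Hoxd1, was at 3.84% and 4.16% over 107 promoter cytosines, so the larger difference at Hoxb1 was not shared by this paralogue. Hoxa2 was at 3.73% and 4.28%, Hoxa4 at 6.61% and 6.43%, Hoxb4 at 5.01% and 6.31%, and the start shared by Hoxd3 and Hoxd4 at 2.15% and 5.64%.

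The central genes, numbered 5 to 8, act in the trunk, and the medians of their 10 measured promoters were 7.36% in XX and 10.7% in XO. Hoxb5, whose upstream sequence is given above, had the lowest level of the 32 measured promoters in XO (2.88% in XX, 2.59% in XO, 21 cytosines). Hoxc8 had the lowest in XX (0.94% in XX, 3.22% in XO, 48 cytosines), and Hoxd8 was at 1.60% and 4.47%. Hoxa5 was at 2.82% and 3.94%, Hoxa6 at 10.3% and 13.7%, Hoxa7 at 8.67% and 13.5%, Hoxb7 at 6.05% and 7.85% and Hoxc5 at 14.1% and 13.8%. Hoxb6 (chr11:96292476-96301569) and Hoxc6 (chr15:102998257-103011881) were higher in XX by at least 5 points, and Hoxb5 and Hoxc5 by under 1 point. The Hoxb6 start was at 34.1% in XX and 19.1% in XO over 10 cytosines, 7 of them higher, and the Hoxc6 start at 41.7% and 27.2% over 16 cytosines, 13 of them higher.

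The annotated starts of Hoxb6 and Hoxc6 are those of long transcripts and lie 6701 bp and 11349 bp from the coding starts. Within 1 kb of the coding start, Hoxb6 was at 2.48% in XX and 4.67% in XO (15 cytosines) and Hoxc6 at 7.63% and 11.9% (21 cytosines), so the higher XX values were found at the distal starts and not within 1 kb of the coding starts. The third gene of this number, Hoxa6, starts 98 bp from its coding start and was lower in XX at both. Other measured promoters also lay far from the coding start, at Hoxc5 (46639 bp), Hoxd3 (32085), Hoxd4 (15350), Hoxa10 (5920), Hoxc9 (5214), Hoxa9 (4985) and Hoxa7 (4449). The Hoxc5 start lies within Hoxc10, and the promoter windows of these genes overlap. Around its coding start Hoxc5 was at 7.15% in XX and 5.35% in XO (69 cytosines). Hoxb8 has its coding start 1058 bp from its annotated start, and around it 18 cytosines were at 43.5% in XX and 28.5% in XO, 15 of them higher. In all, 36 genes had at least 10 cytosines around the coding start, with medians of 5.98% in XX and 7.63% in XO, and 4 of them (11.1%) were lower in XX by at least 5 points, where 23.8% of 9013 protein-coding genes were, and 1 (2.78%) higher, where 5.28% were. This window was chosen after the data had been seen.

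The posterior genes, numbered 9 to 13, pattern the lumbar to caudal axis, the limbs and the urogenital tract. Their 15 measured promoters had a median of 8.35% in XX and a median difference of -2.98 points, and 13 of them were lower in XX. Hoxc12 (chr15:102936757-102938609) had the highest XO level of the 32 measured promoters, with 41.4% in XX and 36.6% in XO over 33 cytosines, above 97.0% of measured promoters in XO and 99.2% in XX. Its forward strand was lower in XX (-18.9 points, 17 cytosines) and its reverse strand higher (30.1 points, 16 cytosines), so its small mean difference stands for opposite values on the strands. Next to it, Hoxc11 was at 2.71% and 5.69%, and Hoxc10 at 19.2% and 23.0%. Hoxc13 (chr15:102921103-102928814) was at 4.92% in XX and 10.2% in XO over 125 cytosines, with most of the difference on the reverse strand (-8.39 points, against -0.59 on the forward strand).

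Hoxb13 (chr11:96194316-96197447), which acts in the tail bud and the prostate, had the most negative difference of the members. Its promoter was at 12.01% in XX and 26.7% in XO over 45 cytosines, 35 of them lower in XX, with -20.3 points on the forward and -6.95 on the reverse strand. Its body was at 11.1% in XX and 33.8% in XO over 17 cytosines, and every cytosine was lower in XX. These 17 are among the 45 promoter cytosines, and the upstream stretch given above also lies within the promoter, so these are not separate readings. In XX the body cytosines lay between 3.03% and 21.2% with a median of 8.82%, and in XO between 6.06% and 62.5% with a median of 37.5%. The other genes numbered 13 had a lower XO promoter level. Hoxc13 is given above, Hoxa13 was at 1.39% in XX and 3.72% in XO, and Hoxd13 at 8.35% and 7.01%. The genes numbered 9 all had a lower promoter mean in XX, between -4.67 points at Hoxb9 and -2.26 at Hoxa9. The strands went opposite ways at Hoxb9 (-11.4 points forward, 1.87 reverse) and Hoxd9 (0.41 forward, -7.16 reverse). At Hoxa9 and Hoxc9 both strands were lower. Of the rest, Hoxa10 was at 12.4% and 12.5%, Hoxa11 at 10.5% and 13.4%, Hoxd10 at 3.38% and 4.01% and Hoxd12 at 6.08% and 9.55%.

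Gene bodies, from annotated start to end, could be measured for all 38 genes, and several of them overlap, since transcripts such as those of Hoxa3, Hoxc5 and Hoxd3 run across neighbouring genes. Their median was 7.57% in XX and 9.22% in XO, against 14.6% and 20.3% over 15113 protein-coding genes. A difference of at least 5 points in the direction of lower XX was found in 6 of the 38 (15.8%), where all protein-coding genes had 55.1%, and in the direction of higher XX in 2 (5.26%), where all had 2.02%. The 6 were Hoxb13, Hoxd4 (9.52% in XX, 17.4% in XO, 118 cytosines), Hoxa6 (5.37% and 12.2%, 23 cytosines), Hoxd3 (10.03% and 16.6%, 333 cytosines), Hoxc13 (5.80% and 11.6%, 131 cytosines) and Hoxb1. The bodies of Hoxd3 and Hoxd4 overlap and share cytosines.

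Hoxb8 (chr11:96281905-96285315), a gene of the trunk, was higher in XX in its body. It was at 30.7% in XX and 16.6% in XO over 37 cytosines, of which 25 were higher and 3 lower, with 12.9 points on the forward and 16.6 on the reverse strand. Its median cytosine was at 38.5% in XX and 11.8% in XO. Among the bodies of protein-coding genes it stood above 40.2% of genes in XO and above 89.3% in XX. The 18 cytosines around the Hoxb8 coding start are among the 37 of its body, so these are not separate readings. The other genes numbered 8 had lower values in XX, with Hoxc8 at 2.95% and 6.68% and Hoxd8 at 1.30% and 4.33%. Hoxb2, a hindbrain gene, was the other body with higher XX (16.5% in XX, 9.22% in XO, 87 cytosines), but 31 cytosines were lower and 29 higher, and the difference came from the reverse strand (13.7 points, against 1.78 on the forward strand) and the coding exon shown above. The body of Hoxd11 was at 7.15% and 4.10% over 191 cytosines, 76 of them higher in XX.

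Since no replicates exist, the strands gave the only second reading of a difference within these libraries. Of the 3688 CpGs of the clusters, 1498 had values on both strands. Strand means over a promoter or gene body therefore cover partly different CpGs and are not repeats at the same sites. Over the 1498 CpGs of the clusters with values on both strands, the strands differed by a median of 2.49 points in XX and 4.02 in XO, and the XX minus XO differences of the strands had a Pearson correlation of -0.002, where the other autosomal CpGs had 0.379. These points share the libraries, and most of the clusters' CpGs are near 0% in both. Differences at single CpGs of the clusters are therefore not reported one by one. Over gene bodies, 19 of the 38 were lower in XX on both strands, where 71.6% of 14561 protein-coding genes were, and 5 (13.2%) were higher on both, where 4.70% were. The remaining 14 went different ways. Across the 38 bodies the differences on the strands had a correlation of 0.213, against 0.487 over all genes. By at least 5 points on each strand, Hoxa6, Hoxb13, Hoxd3 and Hoxd4 were lower in XX, where 38.4% of all genes were, and Hoxb8 was higher, where 0.433% were. At Hoxb8, 19 of the 25 forward cytosines lay in a 2 kb window with no reverse cytosine, so its strands were mostly read at different positions. Of the 29 promoters with at least 5 cytosines on each strand, 14 (48.3%) were lower on both, where 36.5% of all were, and 1 (3.45%) was higher on both, where 15.8% were. Across these 29 the differences on the strands had a correlation of -0.501, against 0.145 over all promoters. Over these 29 the size of the promoter difference thus did not repeat between strands, whose means cover partly different CpGs. Hoxc12, at -18.9 points forward and 30.1 reverse, is among the 29. Of these 29, Hoxb13 alone was lower by at least 5 points on each strand, as were 6.64% of all promoters. On each strand 0 were higher by as much, where 1.18% of all were. The promoters of Hoxb1, Hoxb6 and Hoxc6 were left out here, as each had 4 cytosines on the forward strand. Their forward and reverse differences were -5.97 and -12.0 points at Hoxb1, 2.66 and 23.3 at Hoxb6, and 20.7 and 12.3 at Hoxc6.

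**Figure D4:**
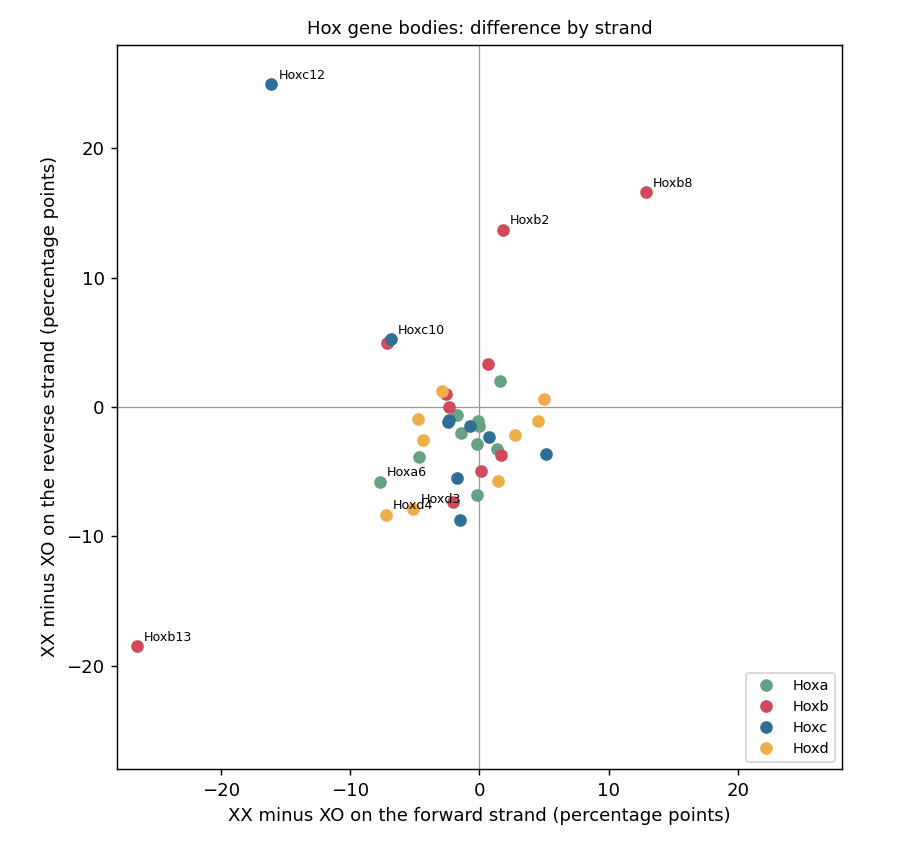
XX minus XO of each of the 38 Hox gene bodies on the forward strand (horizontal axis) against the reverse strand (vertical axis), both in percentage points, with colours for the clusters and names for genes past 10 points on either strand or 5 on both. Hoxb13 lies at -26.5 and -18.5 and Hoxb8 at 12.9 and 16.6, while Hoxc12 lies at -16.1 on the forward and 24.9 on the reverse strand.

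Tiling the spans in windows of 2 kb gave 177 windows with values, 123 of them with at least 10 cytosines. Of these, 34 (of 123) were lower in XX by at least 5 points, where 49.8% of windows over the whole table were, and 6 were higher, where 4.46% were. In Hoxa the window with the highest XO level and the most negative difference lay over the end of Hoxa9 (chr6:52222590-52224589), at 8.13% in XX and 32.9% in XO over 14 cytosines, with -28.3 and -21.2 points on the strands. In Hoxb the most negative was the window at the Hoxb13 start, and the highest XO level, 34.9% (29.6% in XX), lay 3001 bp before Hoxb13. The window at the Hoxb13 start holds the same cytosines as the Hoxb13 promoter. The largest positive difference of any cluster was within the long Hoxb6 transcript (chr11:96293316-96295315), at 42.3% in XX and 20.1% in XO, where all 10 cytosines were higher in XX, by 15.7 points on the forward and 28.6 on the reverse strand. The 7 higher cytosines of the Hoxb6 promoter are among these 10, so this window and that promoter are not separate readings. In Hoxc the window of highest XO level and most negative difference was that of Hotair, described below, and the most positive lay upstream of the Hoxc6 start (18.8% and 11.7%, 17 cytosines). In Hoxd both extremes lay within the Hoxd3 transcript, at 25.8% in XX and 36.7% in XO over 23 cytosines for the highest XO level and most negative difference, and at 18.7% and 13.6% over 15 cytosines for the most positive. In Hoxa the most positive was 4.68 points, at 780 bp upstream of Hoxa11.

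The clusters also held 71 CpG islands, of which 66 had at least 10 cytosines, with medians of 6.12% in XX and 6.82% in XO. The 13026 autosomal islands with as many had medians of 5.78% and 6.89%.

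The other annotated genes of the clusters, most of them noncoding, differed in level. Hotair, the antisense long noncoding RNA between Hoxc12 and Hoxc11, had the highest XO mean among the other genes with at least 10 cytosines (chr15:102944062-102947730), at 30.3% in XX and 47.3% in XO over 14 cytosines, and both strands were lower in XX. Haglr, which starts beside Hoxd1 in the opposite direction, was at 11.8% and 18.3% over 135 cytosines, with -8.54 and -4.24 points on the strands. The other genes named by the same rule were Gm27861 (21.9% in XX, 30.2% in XO), Gm27492 (26.5% and 28.4%), Gm11536 (12.8% and 19.4%) and Gm28230 (10.3% and 16.2%). Gm28230 is annotated as protein-coding and overlaps Hoxd3 and Hoxd4, with which it shares cytosines. As these genes were chosen for a high XO mean, their direction is not read, and others went the other way, such as Hoxb3os (11.1% and 8.90%, 202 cytosines). Of the miRNA genes, Mir10a, Mir10b, Mir196a-1, Mir196a-2 and Mir196b, which target Hox transcripts among others, had 0 listed cytosines, Mir615 had the values given after its sequence, and Gm44463, annotated as a miRNA gene in Hoxd, was at 20.95% in XX and 12.9% in XO over 6 cytosines.

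Of the protein-coding genes that start within 100 kb of a cluster, Evx1, an even-skipped homologue beside Hoxa, was at 5.48% in XX and 8.30% in XO (49 cytosines). Evx2, the same beside Hoxd and 3.753 kb before the start of that span, was at 25.5% in XX and 18.6% in XO (29 cytosines), and was the neighbour with XX higher by at least 5 points. Lnpk was at 8.39% and 12.6% and Mtx2 at 7.28% and 11.4% on the sides of Hoxd, and Skap1 beside Hoxb at 1.00% and 0.68%. Calcoco2 and Ttll6 had too few listed cytosines (6 and 0), and no protein-coding gene started within 100 kb of Hoxc.

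Genes that work with the Hox system were counted as lists, against the 18.3% of all promoters lower in XX by at least 5 points and 5.51% higher, and lists this short are not read beyond their counts. Of 8 ParaHox and Evx genes 7 had promoters with at least 10 cytosines, 0 were lower in XX by at least 5 points and Evx2 was higher. Gsx2 had the highest XO level (25.9%, with 23.4% in XX) and Gsx1 the lowest (3.75%, with 5.06% in XX), and Cdx2, which activates Hox genes in the trunk, was at 12.2% and 11.4%. Of 9 cofactors of the Pbx, Meis and Pknox families, which bind DNA with Hox proteins, 8 were measured, 0 were lower and Pbx4 was higher (29.3% in XX, 22.9% in XO, 19 cytosines). Meis3 was the lowest, at 0.049% and 0.92%. Of 7 chromatin regulators of Hox genes, all measured, 0 were lower and Bmi1, a Polycomb protein, was higher (9.97% in XX, 3.87% in XO, 185 cytosines). Suz12 was the highest in XO (9.53%, with 9.06% in XX) and Kmt2a, which keeps Hox genes active, the lowest (0.94%, with 4.58% in XX). The medians of the differences were 0.80, -1.05 and 2.62 points for these lists, against -1.16 over all promoters and -2.31 over the Hox promoters.

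The table holds no expression, so the cell type was looked at only through promoters of pluripotency genes. Pou5f1 was at 2.15% in XX and 6.47% in XO (11 cytosines) and Zfp42 at 8.99% and 19.6% (16 cytosines), while Nanog, Esrrb and Dppa3 had fewer than 10 listed cytosines.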

How the data were processed

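The authors deposited RRBS methylation as the percent of methylated reads for each CpG cytosine in 1 XX and 1 XO library, made with a NuGEN Ovation Methylseq kit. The submitters' processing notes name bcl2fastq, Bismark and mm10. Versions and any coverage minimum are not given in the sources used here. The table held 1782730 positions, 0 missing values, no read counts and 0 further columns of samples, so depth is unknown. Positions were compared with GRCm38.p6, where 51 lay on no CpG, and were assigned to GENCODE M21. CpG islands were called on the masked reference from a running score (17 at a CpG, -1 at other bases), keeping stretches over 200 bp with 50% GC and an observed to expected ratio above 0.6.

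Means over listed cytosines were taken in each cluster span, the 100 kb on each side, promoters, gene bodies and 2 kb windows, the last 3 with at least 10 cytosines for any count. As there was 1 library per karyotype, no test was run, and features were counted when XX and XO differed by at least 5 points (20 for single cytosines). The members and lists were chosen with earlier results of these data known. Named were all members but 1 of the 39 genes, which is not reported here, the nearest flanking genes on each side and that with the highest XO promoter, up to 6 other genes of the clusters by XO mean, the extreme windows of each cluster, and from the lists the highest, the lowest and any past 5 points. Cdx2 was singled out after its value was seen. Stretches for sequences were limited to those nearest to a member, a change from the planned rule. Alternatives were said to move a difference when it changed by at least 1 point and over 1.5-fold. The code, in Python 3.11.15 with numpy 2.4.6 and pandas 2.3.3, was tested on simulated data.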

Additional observations from a re-analysis of the deposited data

How the results depend on the processing

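No paired analysis was possible because there was 1 library per karyotype. Of the alternative values, 0 changed sign, 77 stayed close and 24 moved. A change of sign was not possible for the counts of promoters and gene bodies. Nor was it possible for means without cytosines at exactly 0% or 100% in both libraries, as such cytosines are equal in XX and XO. For these alternatives the kept sign is therefore not a check. Outside islands the difference was -4.66 points for all clusters, -4.10 for Hoxa, -5.50 for Hoxb, -6.22 for Hoxd and -7.50 beside Hoxa. As a median over cytosines it was -1.42 for all clusters, -0.63 for Hoxa, -1.32 for Hoxd and -3.04 beside Hoxd. As a mean over 2 kb windows it was -4.24 for all clusters, -5.25 for Hoxa, -5.77 for Hoxd, -9.49 for all flanks, -5.75 beside Hoxa and -13.05 beside Hoxc. With 200 kb on each side it was -4.37 beside Hoxa and -5.66 beside Hoxb, and without the interval between Hoxb13 and Hoxb9, an alternative chosen after the data were seen, -1.24 for Hoxb. The count of promoters lower in XX was 1 at a threshold of 10 points, 18 at 2 points, 8 without cytosines at exactly 0% or 100% in both libraries and 5 with each CpG counted once, in place of 3. Gene bodies numbered 1 at 10 points and 13 at 2 points, in place of 6. For the others, including the single strands and spans without the 5 kb margin, the values stayed close. Islands, medians and windows weight positions differently by construction, and otherwise the cause was not tested. The limit of all values is that neither depth nor replicate error is known.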

Other observations

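The levels of the strands of a CpG were less correlated in the clusters than elsewhere, while the difference between strands was smaller there (median 2.49 points in XX and 4.02 in XO, against 3.23 and 4.17). CpGs that were at 40% to 100% on the forward strand in XO had a reverse strand at 24.7% in XO and 21.1% in XX in the clusters (30 CpGs), and at 52.4% and 30.7% at other autosomal positions (56174 CpGs). For CpGs at 20% to 40% the reverse strand was at 14.4% in XO and 12.3% in XX in the clusters (80 CpGs), and at 26.7% and 14.4% elsewhere. Sorted by the reverse strand instead, CpGs at 40% to 100% had a forward strand at 20.9% in XO and 14.6% in XX in the clusters (34 CpGs). Elsewhere it was at 52.3% and 30.5%. The ratio of XX to XO in the clusters was 0.853 with the first sort and 0.697 with the second, so it depended on the strand used. Across CpGs of the clusters with both strands read, the levels of the strands had a Pearson correlation of 0.345 in XO and 0.317 in XX, against 0.783 and 0.646 elsewhere. The points share the libraries, sorting on a strand's own value brings the other strand nearer to the mean of its set, and the SD of the XO levels was 18.4 in the clusters and 29.0 elsewhere.

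Repeat-masked bases made up a smaller share of each cluster than of its own flanks. Their listed cytosines were less methylated in the clusters than elsewhere. Masked bases made up 13.3% of the bases of Hoxa and 24.3% of Hoxb, the lowest and highest share, and held 127 of the listed cytosines. On the flanks the share ran from 23.4% beside Hoxc to 33.9% beside Hoxa. These 127 were at 18.6% in XO with a difference of -4.56 points, whereas repeat-masked cytosines at other autosomal positions were at 47.2% in XO with a difference of -16.9, and those within 100 kb of the clusters at 32.9% with -10.9 (72 cytosines).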
